A study of Macaca mulatta with 20 samples.

Results

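The genes FOSB, EGR1, PPP1R15A and BAG3 were followed through 4 cell populations isolated from the blood of rhesus macaques. They were taken by symbol from the platform annotation of the array, which gives each of them 1 probe, and so make up 4 of the 5236 genes named on 7303 probes. Monocytes, B cells, cytotoxic T cells and helper T cells came from peripheral blood mononuclear cells of 5 adult females, each from a different social group and each with a different dominance rank, from 1 (high) to 5 (low). The labels name no treatment or stimulation for any group. The B cell and cytotoxic T cell arrays of the rank 4 animal were left out, which gave 5 arrays of monocytes, 4 of B cells, 4 of cytotoxic T cells and 5 of helper T cells, 18 in all.

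Immediate early genes are transcribed within minutes of a stimulus without new protein synthesis. FOSB is a Fos family subunit of the transcription factor AP-1, which it forms with a Jun protein, and EGR1 is a zinc finger transcription factor switched on by serum response factor and MAP kinase signalling. PPP1R15A, also called GADD34, brings protein phosphatase 1 to the translation factor eIF2 and so ends the block of translation in the integrated stress response. BAG3 is a co-chaperone of HSP70 that is induced by heat shock factor and takes part in the removal of damaged proteins by autophagy.

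The leading markers of each label had their highest medians in its arrays, with some genes of other cells beside them. The mean of 7 monocyte markers lay between 12.54 and 13.20 log2 in monocytes and between 7.90 and 8.20 in the other arrays. The mean of 8 T cell markers lay between 10.87 and 11.73 in both T cell types, against 7.71 to 7.76 in monocytes and 8.22 to 8.69 in B cells. Of the B cell markers 2 of 8 were measured, and CD79B, which signals for the antigen receptor of B cells, ran from 13.15 to 13.90 in B cells and to no more than 8.34 in the other types. CD3D, a T cell gene, ran from 9.41 to 11.17 in the B cell arrays and stayed at or below 7.75 in monocytes. CD3G (8.23 to 9.98 in B cells), CD6 and BCL11B also lay above their monocyte ranges there. CD3E (7.69 to 7.84 in B cells), LAT (7.58 to 7.71), CD5 (7.54 to 7.62) and CD2 (7.83 to 8.70) overlapped theirs. CD8A, a chain of the cytotoxic T cell co-receptor, ran from 13.84 to 14.36 in cytotoxic T cells, 8.31 to 11.29 in helper T cells and 8.20 to 10.97 in B cells, and CD8B from 8.92 to 9.40, 7.79 to 8.01 and 7.87 to 7.95 in the same order. CD4, a marker of helper T cells, ran from 8.22 to 8.85 in helper and from 7.58 to 7.69 in cytotoxic T cells. In monocytes CD4 ran from 7.81 to 8.30, which overlaps the helper T cell range, and in B cells from 7.59 to 7.79. Means of 4 natural killer cell genes ran from 10.26 to 11.41 in cytotoxic and from 8.37 to 9.65 in helper T cells. Of 4 granulocyte genes measured, CSF3R (12.37 to 13.92) and CAMP (13.35 to 13.95) were high in monocytes and CXCR2 (7.99 to 8.67) and MPO (8.19 to 8.40) were low. The part of other cells in the levels below was not tested. The 2 arrays left out were alike (r = 0.876 over probes) and unlike the other 18 (r of 0.148 to 0.193). All arrays had been brought to 1 distribution, with quartiles of 8.04 and 9.21 log2, so each value is a relative level among the probes of 1 array rather than an amount of RNA. In such bulk samples, fewer cells with a transcript and less of it per cell cannot be told apart.

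All 4 genes were highest in monocytes, yet they differed in where the B cells and T cells stood. EGR1 was nearly as high in B cells as in monocytes and low in both T cell types. FOSB was high in monocytes and lower, with wide spread, in the lymphocytes. PPP1R15A lay above the median of the array (8.39) in all 18 arrays and was higher again in monocytes. BAG3 was dim, and in the T cells its probe lay among the lowest of the array.

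FOSB (probe ILMN_1751607) had levels of 11.80, 11.30, 11.60, 11.50 and 12.50 log2 in the monocytes of ranks 1 to 5. In the B cells of ranks 1, 2, 3 and 5 it had 11.02, 8.98, 9.57 and 9.35. In the cytotoxic T cells of the same ranks it had 10.99, 7.97, 8.23 and 8.26, and in the helper T cells of ranks 1 to 5 it had 9.64, 7.88, 8.11, 9.82 and 8.04. Every monocyte array stood above every lymphocyte array, as it did for 10.2% of all probes. The lymphocytes split by animal, with the rank 1 arrays of all 3 lymphocyte types and the rank 4 helper array above the rest of their type. The lowest T cell arrays, those of the rank 2 animal, had FOSB above 9.85% of the probes in helper and 17.7% in cytotoxic T cells, which is near the floor of the array.

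FOSB in monocytes averaged 11.74 ± 0.46 log2 (SD, n = 5), against 9.73 ± 0.89 in B cells (n = 4), 8.86 ± 1.42 in cytotoxic T cells (n = 4) and 8.70 ± 0.95 in helper T cells (n = 5). Within animals it was higher in monocytes than in B cells by 1.90 ± 0.42 log2 (SE, adjusted p = 0.0017), in 4 of 4 animals. The difference was 2.77 ± 0.42 to cytotoxic T cells (adjusted p = 7.28e-05, 4 of 4 animals) and 3.04 ± 0.38 to helper T cells (adjusted p = 1.30e-05, 5 of 5 animals). With several T cell arrays near the floor, these differences may understate a change in the transcript, and no fold is given. The gap between monocytes and cytotoxic T cells was 0.81 in the rank 1 animal and as wide as 4.24 in the rank 5 animal. B cells did not differ from helper T cells past the threshold (1.14 ± 0.42, 95% interval 0.24 to 2.04, adjusted p = 0.064), although the sign was the same in 4 of 4 animals. The intervals for B cells over cytotoxic T cells (-0.06 to 1.79) and for cytotoxic over helper T cells (-0.63 to 1.17) included 0. When only the 2 types compared were fitted, FOSB passed for B cells over helper T cells (1.31, adjusted p = 0.000183) and over cytotoxic T cells (0.87, adjusted p = 0.0312).

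**Figure D1:**
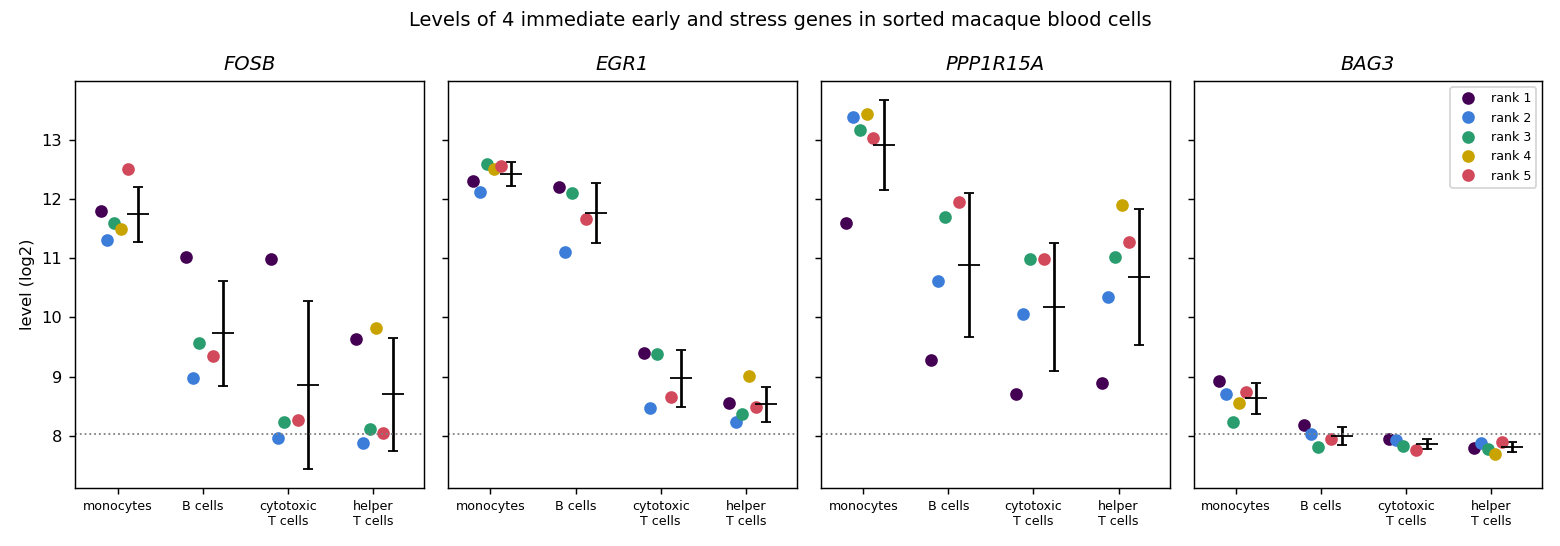
Level of each gene (log2, vertical axis) in monocytes, B cells, cytotoxic T cells and helper T cells, with 1 point per array coloured by the rank of the animal, the mean and SD in black and the lower quartile of all probes (8.04) dotted. All 5 monocyte arrays lie above all lymphocyte arrays for FOSB and BAG3, EGR1 is high in B cells too, and the rank 1 arrays are the lowest of each type for PPP1R15A.

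EGR1 (probe ILMN_1762899) parted monocytes and B cells from T cells. Its levels were 12.31, 12.12, 12.59, 12.51 and 12.56 log2 in the monocytes of ranks 1 to 5 and 12.20, 11.10, 12.10 and 11.66 in the B cells of ranks 1, 2, 3 and 5. The cytotoxic T cells of those 4 ranks had 9.40, 8.47, 9.38 and 8.66, and the helper T cells of ranks 1 to 5 had 8.55, 8.24, 8.37, 9.02 and 8.48. The lowest B cell array stood above the highest T cell array by more than the whole spread within either T cell type. All B cell arrays lay above all helper T cell arrays for 8.35% of probes and above all cytotoxic T cell arrays for 9.8%. Monocytes had the narrowest spread, and their range overlapped that of B cells where the rank 2 monocyte array (12.12) lay below the rank 1 B cell array (12.20).

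B cells exceeded helper T cells in EGR1 by 3.30 ± 0.16 log2 (SE, adjusted p = 8.16e-09) and cytotoxic T cells by 2.79 ± 0.17 (adjusted p = 5.21e-08), in 4 of 4 animals each. By size, 0.26% of all probes had a larger difference between B cells and helper T cells and 0.616% between B cells and cytotoxic T cells. Monocytes exceeded helper T cells by 3.88 ± 0.15 (adjusted p = 1.38e-10, 5 of 5 animals) and cytotoxic T cells by 3.37 ± 0.16 (adjusted p = 1.51e-09, 4 of 4 animals). Over B cells the monocytes were higher by 0.58 ± 0.16 (adjusted p = 0.00837), with differences from 0.11 to 1.02 in 4 of 4 animals. That call was lost without the rank 2 animal (0.43, adjusted p = 0.0766) and when all 20 arrays were used (0.20, adjusted p = 0.761). Among the monocyte markers CST3 ran from 8.38 to 8.83 in B cells, against 7.90 to 8.25 in T cells, and CSF1R from 8.12 to 8.40, against 7.84 to 7.99, while CST3 in monocytes lay at 14.41 or more. The other measured monocyte markers overlapped between B cells and T cells. CD14 ran from 8.07 to 8.16 in B cells and 8.01 to 8.29 in T cells, and TLR4 from 7.66 to 7.71 and 7.67 to 7.75. FCER1G, S100A9 and AIF1 overlapped too. The part of monocyte transcripts in the EGR1 level of B cells was not tested. Cytotoxic and helper T cells differed by 0.52 ± 0.16, which did not pass after adjustment (adjusted p = 0.138), with an interval of 0.17 to 0.87.

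PPP1R15A (probe ILMN_1659936) had 11.59, 13.38, 13.16, 13.44 and 13.02 log2 in the monocytes of ranks 1 to 5. In the B cells of ranks 1, 2, 3 and 5 it had 9.27, 10.61, 11.69 and 11.94. The cytotoxic T cells had 8.70, 10.06, 10.98 and 10.98 in the same order, and the helper T cells of ranks 1 to 5 had 8.90, 10.34, 11.02, 11.89 and 11.28. In each of the 4 types the rank 1 array was the lowest. The rank 1 monocyte array lay within the ranges of B cells and helper T cells, while within each animal monocytes stood higher. The monocyte mean was 12.92 ± 0.76 (SD, n = 5), against 10.88 ± 1.22 in B cells (n = 4), 10.18 ± 1.08 in cytotoxic T cells (n = 4) and 10.69 ± 1.14 in helper T cells (n = 5).

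Within animals PPP1R15A was higher in monocytes than in B cells by 1.82 ± 0.22 log2 (SE, adjusted p = 1.35e-05, 4 of 4 animals). The difference was 2.52 ± 0.22 to cytotoxic T cells (adjusted p = 5.42e-07, 4 of 4 animals) and 2.23 ± 0.20 to helper T cells (adjusted p = 6.32e-07, 5 of 5 animals). B cells were higher than cytotoxic T cells by 0.70 ± 0.23 (adjusted p = 0.0388), by 0.56 to 0.96 in each of 4 animals. This last call did not hold without the animal of rank 1, 3 or 5 (adjusted p = 0.107, 0.122 and 0.139) or without the replicate block for the animal (adjusted p = 0.641). B cells and helper T cells (0.41 ± 0.22, interval -0.07 to 0.89) and cytotoxic and helper T cells (-0.29 ± 0.22, interval -0.77 to 0.19) did not part past the threshold. The cytotoxic array was lower than the helper array of the same animal in 4 of 4 animals, by 0.04 to 0.30.

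BAG3 (probe ILMN_1659766) was a dim probe whose monocyte levels were 8.93, 8.71, 8.24, 8.56 and 8.74 log2 in ranks 1 to 5. It had 8.18, 8.03, 7.81 and 7.95 in the B cells of ranks 1, 2, 3 and 5 and between 7.69 and 7.95 in the 9 T cell arrays. In helper T cells 2.10% to 11.3% of the probes of an array were lower, so BAG3 lay near the floor there, while in monocytes 41.7% to 69.0% were. All monocyte arrays stood above all lymphocyte arrays, as they did for 10.2% of all probes. The gap between the lowest monocyte and the highest B cell array was narrow. BAG3 was higher in monocytes by 0.67 ± 0.09 over B cells (SE, adjusted p = 2.41e-05), 0.80 ± 0.09 over cytotoxic T cells (adjusted p = 4.12e-06) and 0.83 ± 0.08 over helper T cells (adjusted p = 1.04e-06), in every animal that had both arrays. These differences were of a common size in the table, since 17.97% to 21.1% of all probes had a larger one in the same contrasts. Among the lymphocytes the differences in BAG3 were at most 0.16, with intervals that included 0. For a probe near the floor such differences may understate a change in the transcript, which was not tested.

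**Figure D2:**
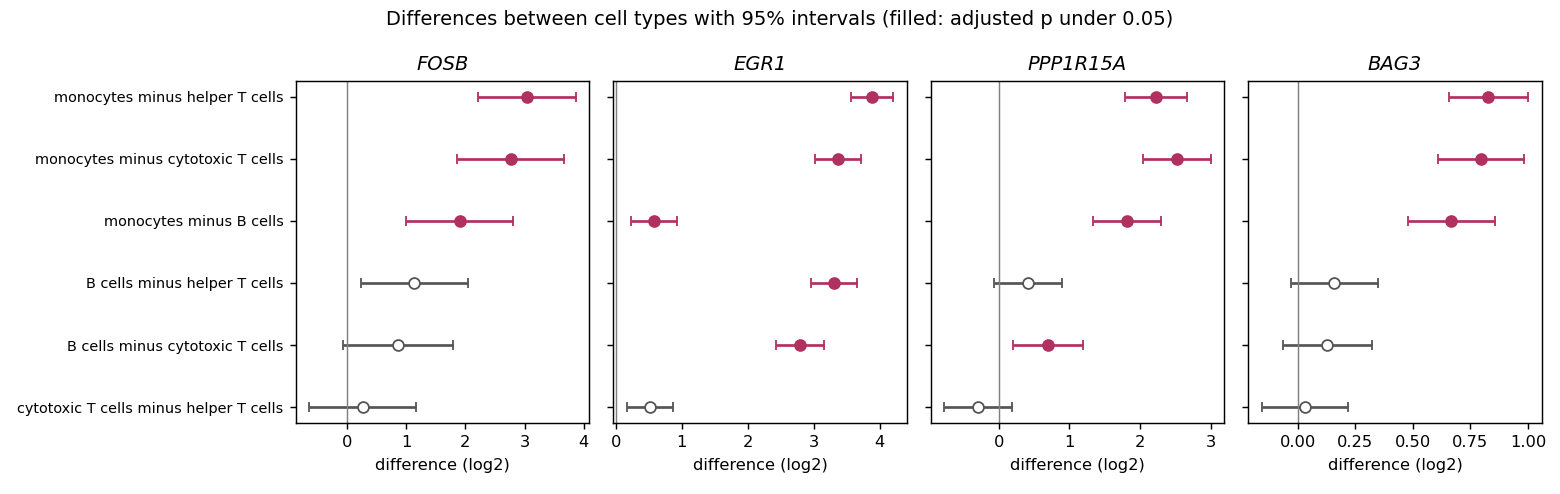
Difference between 2 cell types (log2, horizontal axis, scaled for each gene) with its 95% interval from the fit of 18 arrays, in 6 contrasts for each gene. Filled points passed an adjusted p of 0.05. All 12 monocyte contrasts lie above 0, and among the lymphocytes EGR1 in B cells and PPP1R15A in B cells over cytotoxic T cells passed.

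Monocytes differed from lymphocytes in a large share of the whole table, and the counts of the 4 genes stand against that background. All 4 were higher in monocytes than in helper T cells, as were 27.5% of all probes. All 4 were higher than in cytotoxic T cells (26.5% of all probes) and all 4 than in B cells (22.8%). Higher than in each of the 3 were 18.4%, and lower than in each 22.5%. Between B cells and helper T cells EGR1 alone was called, where 11.9% of all probes were higher in B cells. Between B cells and cytotoxic T cells EGR1 and PPP1R15A were called, where 12.1% were higher. The limma fit called 0 of the 4 between cytotoxic and helper T cells, against 2.64% of all probes, and EGR1 was the 1 gene of the 4 with an unadjusted p under 0.05 there (0.00731).

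The animals differed in FOSB, EGR1 and PPP1R15A. FOSB and EGR1 were lowest in the rank 2 animal in all 4 cell types. PPP1R15A was lowest in the rank 1 animal in all 4. Averaged over types, FOSB in the rank 2 animal lay at -0.72 log2 from the type means (-0.89 to -0.44 in its 4 arrays), and EGR1 at -0.44 (-0.67 to -0.30). PPP1R15A in the rank 1 animal lay at -1.55 (-1.79 to -1.33), with the smallest deviation in monocytes and the largest in helper T cells. Of all probes 4.12% had the rank 2 array lowest in all 4 types and 1.31% had the rank 1 array lowest. BAG3 had no such animal, and its deviations lay between -0.40 and 0.30.

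A test over animals was added after these values were seen. Limma's F test for the animal, with cell type in the fit, gave an adjusted p of 3.36e-05 for PPP1R15A, 0.0246 for EGR1, 0.0272 for FOSB and 0.0964 for BAG3. It called 33.5% of all probes, so a difference between animals was common in these arrays. The calls rested on few animals. Without the rank 1 animal the adjusted p was 0.0742 for PPP1R15A and 0.318 for FOSB. Without the rank 2 animal it was 0.332 for EGR1 and 0.121 for FOSB, and FOSB also missed without rank 3 (0.0563). With all 20 arrays the adjusted p was 0.0562 for EGR1, 0.0729 for FOSB and 0.0902 for PPP1R15A. Rank, social group and animal, and the handling of each animal's blood, cannot be told apart.

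**Figure D3:**
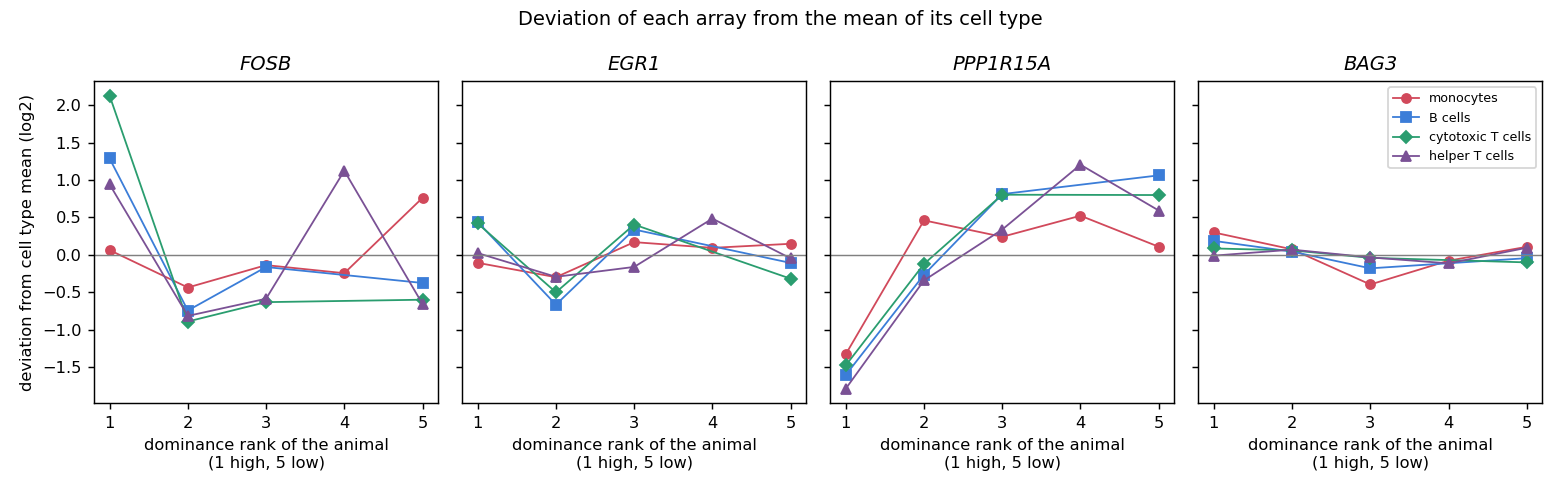
Deviation of each array from the mean of its cell type (log2, vertical axis) against the dominance rank of the animal (1 high, 5 low), with 1 line per cell type. FOSB and EGR1 are lowest at rank 2 in every type, PPP1R15A lies at -1.79 to -1.33 at rank 1 in every type, and BAG3 stays between -0.40 and 0.30.

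Markers of red blood cells moved in the opposite direction to PPP1R15A. The mean of HBA1, HBA2, HBB, ALAS2 and AHSP, which encode globin chains and proteins of haemoglobin formation, lay between 11.14 and 11.46 in the 4 arrays of the rank 1 animal. It lay between 10.72 and 11.32 in the rank 2 arrays and between 9.69 and 10.60 in the others. ALAS2 stayed between 7.74 and 7.92 and AHSP between 8.03 and 8.36 in all 18 arrays, so this mean varied with the globin genes. Over 18 arrays, the deviation of this mean from the cell type means correlated with that of PPP1R15A at r = -0.75, with EGR1 at -0.20, with FOSB at 0.32 and with BAG3 at 0.57. These arrays share animals, and the part of red cell transcripts in the result for PPP1R15A was not tested. Platelet markers (3 of 5 measured) lay between 7.88 and 8.01 in all arrays and gave r = -0.25 with PPP1R15A. FCER1A, the 1 of 4 dendritic cell markers measured, lay between 8.05 and 9.39 in monocytes, and its deviations gave r = 0.69 with BAG3, whose relation to such cells was not tested.

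Along dominance rank, PPP1R15A had the steepest positive slopes of the 4 genes, and none passed after adjustment. Its slope per rank step, positive where lower-ranking animals had more, was 0.29 ± 0.17 log2 in monocytes (SE, n = 5, adjusted p = 0.647), 0.64 ± 0.16 in B cells (n = 4, adjusted p = 0.492), 0.53 ± 0.17 in cytotoxic T cells (n = 4, adjusted p = 0.374) and 0.63 ± 0.16 in helper T cells (n = 5, adjusted p = 0.77). In helper T cells no other probe had a larger slope, and in B cells 0.0137% did. The unadjusted limma p was 0.0172 in B cells, 0.033 in cytotoxic T cells and 0.0102 in helper T cells. An exact two-sided permutation of the ranks gave 0.05 in helper T cells, 0.125 in B cells, 0.167 in cytotoxic T cells and 0.317 in monocytes, all 0.4 or more after adjustment over the 16 tests of gene and type. The smallest p that the permutation can give is 0.0167 with 5 arrays and 0.0417 with 4. The slopes leaned on the rank 1 animal. Without it they were -0.08 in monocytes, 0.40 in B cells, 0.26 in cytotoxic T cells and 0.37 in helper T cells. When arrays were scaled to TBP and EEF1A1, the 2 housekeeping genes measured, the slopes of PPP1R15A passed in B cells (0.79), cytotoxic T cells (0.69) and helper T cells (0.73), and so did that of FOSB in cytotoxic T cells (-0.36). That scaling raised the median slope of all probes to 0.14, 0.16 and 0.10 in these 3 types.

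Without that scaling, no slope of FOSB, EGR1 or BAG3 passed in any type. For FOSB the slope was 0.16 ± 0.11 in monocytes and -0.30 ± 0.22, -0.52 ± 0.32 and -0.13 ± 0.26 in B cells, cytotoxic T cells and helper T cells. Without the rank 1 animal, whose lymphocyte arrays were high, the 3 slopes were 0.09, 0.09 and 0.22. For EGR1 the slopes lay between -0.11 and 0.09, and in monocytes the interval was -0.03 to 0.21. For BAG3 they lay between -0.06 and 0.003. BAG3 in cytotoxic T cells had levels of 7.95, 7.92, 7.82 and 7.76 at ranks 1, 2, 3 and 5, which reached the smallest p the exact permutation allows (0.0417), or 0.4 after adjustment. Over the whole table limma called 0 probes (0%) along rank in each type, with 6.45% of probes in monocytes, 9.86% in B cells, 12.6% in cytotoxic T cells and 5.57% in helper T cells at an unadjusted p under 0.05. The slopes of the 4 genes were not shown to differ between cell types. The F test of the interaction gave an adjusted p of 0.418 for PPP1R15A, 0.682 for FOSB, 0.861 for EGR1 and 0.938 for BAG3, and called 0.0274% of all probes.

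FOSB and EGR1 moved together between arrays of a type, and their correlations with PPP1R15A and BAG3 were weak or negative. Over 18 arrays, the deviations of FOSB and EGR1 from the type means correlated at r = 0.68. Those of FOSB with PPP1R15A gave -0.53, of EGR1 with PPP1R15A -0.03 and of PPP1R15A with BAG3 -0.54. EGR1 with BAG3 gave -0.19 and FOSB with BAG3 0.17. The points share 5 animals, so these values describe the arrays and carry no test.

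A list of 36 immediate early genes had 22 measured members, or 20 without FOSB and EGR1. Of these 20, 9 were higher and 4 lower in monocytes than in B cells, 12 and 2 than in cytotoxic T cells, and 9 and 4 than in helper T cells. Of all probes 30.8%, 32.8% and 34% were lower in monocytes in these contrasts, beside the shares above that were higher. The median difference of the 20 was 0.48, 0.93 and 0.35 log2 in that order, beside -0.01, -0.001 and 0.004 over all probes. In all 3 contrasts 8 of the 20 were higher and 2 lower, beside 18.4% and 22.5% of all probes. Counted with FOSB and EGR1, 10 of the 22 were higher in all 3, and 7 were with all 20 arrays. With all 20 arrays 0 were lower in all 3, and 1 was lower without the animal of rank 1, 2, 3 or 4. Fewer of all probes were called with all 20 arrays too, as given below. DUSP6, a phosphatase of ERK kinases, was higher by 4.37 ± 0.09 over B cells, 4.45 ± 0.09 over cytotoxic T cells and 4.51 ± 0.08 over helper T cells. KLF4, a transcription factor of monocyte differentiation, was higher by 4.40 ± 0.13, 4.37 ± 0.13 and 4.32 ± 0.12 in the same order, and PTGS2, the inducible cyclooxygenase, by 3.02 ± 0.26, 3.00 ± 0.26 and 3.09 ± 0.24. Both probes of each of these 3 genes were higher in all 3 contrasts. EGR3, a relative of EGR1, was at 9.05 ± 0.41 (SD) in monocytes but at 7.91 ± 0.14 in B cells, 7.62 ± 0.07 in cytotoxic and 7.64 ± 0.04 in helper T cells, so it lacked the high B cell level of EGR1. KLF2, a factor of lymphocyte quiescence, was lower in monocytes by -1.58 ± 0.19, -1.47 ± 0.19 and -1.35 ± 0.18. The orphan receptor NR4A2 was lower by -1.52 ± 0.28, -0.87 ± 0.28 and -0.69 ± 0.26 by 1 of its 2 probes.

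FOS and the Jun genes, the kin and partners of FOSB, were singled out after their values were seen, and they did not share its cell type pattern. FOS, the founding member of the family, averaged 11.89 ± 0.92 log2 (SD) in monocytes, 11.58 ± 1.71 in B cells, 10.61 ± 1.73 in cytotoxic T cells and 11.90 ± 1.45 in helper T cells. Monocytes exceeded cytotoxic T cells by 1.08 ± 0.38 (SE, adjusted p = 0.0243), while against helper T cells the difference was -0.01 ± 0.35 (adjusted p = 0.976) and against B cells 0.11 ± 0.38 (adjusted p = 0.824). JUN was at 12.18 ± 0.59, 11.85 ± 0.81, 12.24 ± 0.59 and 12.80 ± 0.81 in the same order, and lower in monocytes than in helper T cells by -0.62 ± 0.26 (adjusted p = 0.0494). JUNB was higher in monocytes than in cytotoxic T cells by 1.53 ± 0.30 (adjusted p = 0.000651) and did not pass against the other types. JUND differed between monocytes and each other type by at most 0.15.

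Across animals, FOS, JUN and JUNB did follow FOSB and EGR1. In the rank 2 animal FOS was at 10.29 in monocytes, 9.16 in B cells, 8.55 in cytotoxic T cells and 9.62 in helper T cells, the lowest of each type. The other animals had FOS between 9.95 and 13.31. Of the 20 immediate early genes beside FOSB and EGR1, 4 had the rank 2 array lowest in all 4 types, namely FOS, JUN, JUNB and DUSP1, beside 4.12% of all probes. The deviations of FOS correlated with those of EGR1 at 0.90 and with those of FOSB at 0.77, those of JUNB at 0.83 and 0.80, and those of JUN at 0.71 and 0.76. Other genes compared gave lower values. In the same order these were 0.55 and 0.46 for DUSP1, 0.39 and 0.16 for JUND and 0.20 and 0.20 for KLF4. ATF3 gave 0.21 and 0.42, and ATF4 gave 0.14 and 0.39. PPP1R15A stood apart, with -0.17 to FOS, -0.07 to JUNB and -0.17 to JUN, and BAG3 with -0.11, -0.22 and 0.01.

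**Figure D4:**
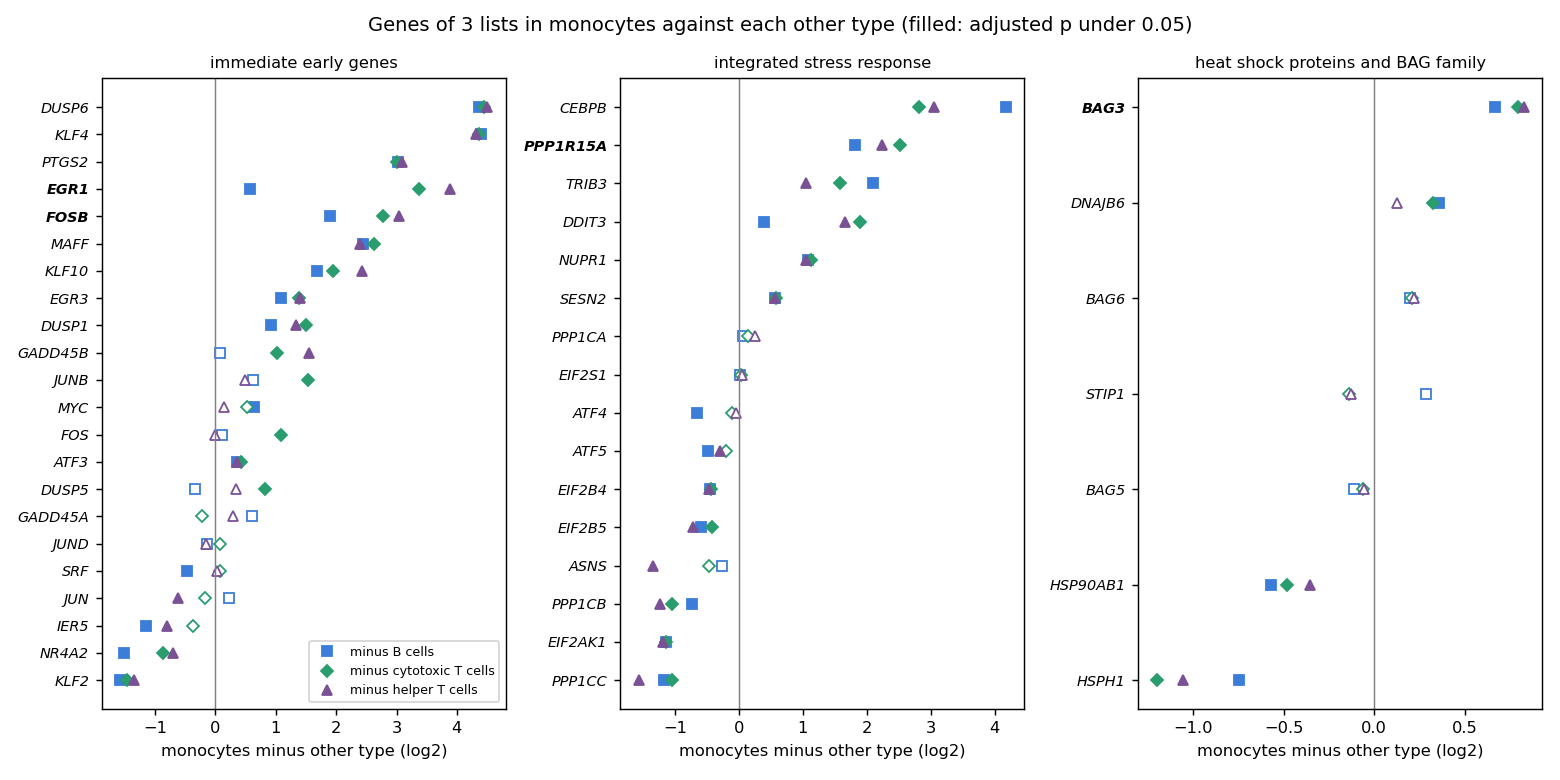
Difference of monocytes minus B cells (squares), minus cytotoxic T cells (diamonds) and minus helper T cells (triangles) in log2 for the measured genes of 3 lists, with filled marks for an adjusted p under 0.05 and the 4 genes followed here in bold. EGR1 differs from B cells by 0.58 but from cytotoxic and helper T cells by 3.37 and 3.88, CEBPB and PPP1R15A lie at 1.82 or more in all 3 contrasts, and HSPH1 and HSP90AB1 lie on the other side of 0 from BAG3.

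Of 29 listed genes of the integrated stress response 16 were measured, PPP1R15A among them. In all 3 monocyte contrasts 6 were higher and 5 lower, beside 18.4% and 22.5% of all probes. With all 20 arrays 5 of the 16 were higher and 1 lower. Without PPP1R15A, 5 of 15 were higher and 5 lower in the fit of 18 arrays. The higher ones, beside PPP1R15A, included CEBPB, a transcription factor of myeloid cells, with 14.01 ± 0.16 (SD) in monocytes, 9.92 ± 0.12 in B cells, 11.28 ± 0.76 in cytotoxic and 10.96 ± 0.59 in helper T cells. TRIB3, a pseudokinase induced by this response, was higher by 2.10 ± 0.23 over B cells, 1.58 ± 0.23 over cytotoxic and 1.05 ± 0.21 over helper T cells. DDIT3, the stress-induced factor CHOP, had a pattern like that of EGR1, with 10.90 ± 0.41 in monocytes, 10.40 ± 0.42 in B cells, 8.90 ± 0.21 in cytotoxic and 9.24 ± 0.47 in helper T cells. PPP1CC, a catalytic subunit of the phosphatase that PPP1R15A recruits, was lower in monocytes by -1.17 ± 0.11, -1.04 ± 0.11 and -1.57 ± 0.10. EIF2AK1, a kinase of eIF2, was lower too (-1.14 to -1.18). ATF4, the central transcription factor of the response, was lower in monocytes than in B cells by -0.65 ± 0.17 (adjusted p = 0.00576) and did not pass against T cells. The list median lay between -0.12 and 0.003 with PPP1R15A. Without it the median was -0.26 against B cells, -0.10 against cytotoxic and -0.05 against helper T cells.

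Of 34 heat shock and BAG genes 7 were measured, and in all 3 contrasts 1, BAG3, was higher in monocytes and 2 were lower. These counts are small, and 18.4% and 22.5% of all probes were higher and lower. With all 20 arrays 0 were lower, and 1 was lower with housekeeping scaling or without the animal of rank 3, 4 or 5. HSPH1, a nucleotide exchange factor of HSP70, was lower by -0.75 ± 0.16, -1.20 ± 0.16 and -1.05 ± 0.14 against B cells, cytotoxic T cells and helper T cells. HSP90AB1, a constitutive HSP90, was lower by -0.57 ± 0.14, -0.48 ± 0.14 and -0.35 ± 0.13. BAG5 and BAG6, the other BAG genes measured, differed by at most 0.22 with their brighter probes, while the other probe of BAG6 was higher in monocytes in all 3 contrasts. Of 7 genes of endoplasmic reticulum stress, CANX (1.72 ± 0.14, 0.91 ± 0.14 and 1.23 ± 0.13) and CALR (0.27, 0.21 and 0.35), a pair of lectin chaperones, were higher and SDF2L1 lower (-0.33, -0.65 and -0.37). Of these 7, 1 was higher with housekeeping scaling or without the animal of rank 3 or 5, and 0 were lower with all 20 arrays, with that scaling or without the animal of rank 1, 2 or 5. Of 11 regulators and partners of EGR1 and FOSB, 0 were higher in all 3 contrasts, but 1 was with housekeeping scaling and without the animal of rank 3 or 4. CREB1, CREBBP and BATF were lower in all 3, 3 of 11 beside 22.5% of all probes, CREB1 by -0.87 ± 0.13 against B cells. For CREBBP this held for 1 of its 2 probes. SRF, a factor that switches on EGR1, was lower in monocytes than in B cells by -0.47 ± 0.11 (adjusted p = 0.002) and did not pass against T cells.

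The genes most like each of the 4 were taken as the 5 with the highest Pearson correlation over the 18 arrays, which share animals and cell types. EGR1 was followed most closely by CD74 (r = 0.978), the invariant chain of MHC class II, with means of 12.95 in monocytes, 12.79 in B cells, 8.87 in cytotoxic and 8.20 in helper T cells. Next came HLA-DRB4 (0.976), PLXNB2 (0.962), PRCP (0.961) and PLTP (0.958). FOSB was followed by ATP6V1H (0.914), CSRNP1 (0.890), TMEM158 (0.879), LAMP3 (0.865) and FTH1P3 (0.862). ATP6V1H was dim, with cell type means of 8.08 to 8.22, below the array median of 8.39. PPP1R15A had ZPR1 (0.894), RBM18 (0.883), DHRS1 (0.882), CREB3L2 (0.864) and MRPL54 (0.864). BAG3 had NEDD9 (0.976), C1QB (0.954), NDUFAF3 (0.951), FAM110A (0.950) and LONRF3 (0.945), and NEDD9 had means of 9.66 in monocytes, 8.36 in B cells and at most 8.03 in the T cell types.

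With the cell type means taken out, other genes led. For EGR1 they were FOS (0.905), MOB2 (0.880), ING2 (0.846), JUNB (0.831) and RWDD2B (0.814), so 2 of the 5 were AP-1 subunits. For FOSB they were HEBP2 (0.888), CDK1 (0.859), CBS (0.853), PHC3 (0.846) and WDR70 (0.833). For PPP1R15A they were CTBP1 (0.912), NMRAL1 (0.906), DNAJA2 (0.888), DHRS1 (0.860) and SCARNA16 (0.852). For BAG3 they were RBM7 (0.898), NEDD9 (0.863), TREML1 (0.813), ARFGAP2 (0.788) and LMAN1 (0.784). DHRS1 and NEDD9 stood in both lists of their gene. Some of these probes were dim in every type, with means of 7.80 to 7.84 for CBS, 7.94 to 8.16 for TREML1 and 7.98 to 8.20 for SCARNA16.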

How the data were processed

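RNA of the isolated cell populations was labelled as biotinylated cRNA, per the labels, and the submitters' processing notes name lumi, with no version. The deposited values are used as log2. No source used here states their logarithm base, background correction or probe filter, nor whether a variance-stabilizing transform took the place of a plain logarithm, in which case a difference between dim levels is not a log2 fold. The 2 deposited tables were identical, so raw intensities and detection calls were not used. The arrays carry human probes, so the tests compared each probe with itself. The place of a probe among the others of an array, and the sizes and slopes ranked over probes, also depend on the probe. How well each probe matches the macaque transcript was not tested. Of 7303 probes, 6055 have 1 symbol, 1 has several and 1247 have none here.

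Limma 3.58.1 in R 4.3.3 fitted all probes on 18 arrays with cell type and animal as fixed terms. Benjamini-Hochberg adjustment ran within each of 6 contrasts (threshold 0.05). Rank slopes were fitted per cell type, and their difference between types by an F test in a fit that also held the animals. Contrasts, slopes and permutations were two-sided, and the fits were tested on simulated data. The animal code in the titles pairs the arrays, and deviations from type means correlated over probes at a median of 0.478 within animals (0.238 to 0.809, 25 pairs) and -0.248 between animals and types. With several probes, the brightest stands for a gene. Genes of lists were named where called in all 3 monocyte contrasts, at most 4 by size, along with the 5 most correlated genes. KLF2, NR4A2, EGR3, FOS, JUN, JUNB, JUND, PPP1CC, EIF2AK1, ATF4, SRF, BAG5 and BAG6 were named after their values were seen. Members and lists were chosen with earlier results of these data known. The number of arrays limits the precision.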

Additional observations from a re-analysis of the deposited data

Results flagged for a closer look

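The values of each gene in each cell type, 16 groups in all, were searched for an array far from the others, which chance alone gives in about 1 of 20 groups. FOSB in the cytotoxic T cells of the rank 1 animal was at 10.99 log2, while the nearest other array was at 8.26. PPP1R15A in the monocytes of the rank 1 animal was at 11.59, below the nearest array at 13.02. In the 2 rank 4 arrays left out of the comparisons, EGR1 was above every array that bears the same label. It was at 12.33 in the array labelled cytotoxic T cells, against at most 9.40 in the other 4, and at 14.04 in the array labelled B cells, against at most 12.20. FOSB, PPP1R15A and BAG3 were at 8.01, 7.83 and 7.86 in the first of these arrays and at 9.55, 7.86 and 7.85 in the second.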

How the results depend on the processing

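The 12 differences of the 4 genes between monocytes and another type kept their sign in each alternative that held the gene, and all but EGR1 over B cells kept their call. BAG3 was removed by the filter on dim probes, which left 3 of the 4 genes. Robust moderation and 1 joint fit of the slopes changed no call of the 4 genes. Quantile normalization and the second table could change nothing, since the arrays share 1 distribution and the tables are identical. No raw intensities were used, so another background correction was not run, and the cause of the changes below was not tested. With all 20 arrays, 1 gene was called for B cells over cytotoxic T cells and 0 in the test over animals. The difference of B cells over helper T cells was then -0.41 for PPP1R15A, that of cytotoxic over helper T cells -0.0092 for FOSB, and the slope of EGR1 0.18 in B cells and 0.24 in cytotoxic T cells. All probes called then fell to 2086, 2361 and 2591 for monocytes over B cells, cytotoxic T cells and helper T cells, 671 for B cells over helper T cells, 462 for B cells over cytotoxic T cells, 22 for cytotoxic over helper T cells and 1014 over animals.

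With housekeeping scaling 2 genes were called for B cells over helper T cells (EGR1 and FOSB), 1 for cytotoxic over helper T cells (EGR1, 0.62), and 1, 2 and 1 for the slopes in B cells, cytotoxic T cells and helper T cells. Slopes changed sign for EGR1 in cytotoxic T cells (0.047) and B cells (0.098) and for BAG3 in the same types (0.11 and 0.089). The scaling rests on 2 genes, which themselves differed between cell types in the main fit. TBP was lower in monocytes than in each other type (-0.90 to -1.05), and EEF1A1 was higher (0.84 to 0.97). With the scaling, the slopes of 772, 1054, 3 and 3 probes passed in B cells, cytotoxic T cells, helper T cells and monocytes, with 5955 in the test over animals. Of the 4 genes 2 were called for B cells over helper T cells among probes above the median mean and with a mean-variance trend, as were 2471, 2623 and 2733 probes for monocytes over B cells, cytotoxic T cells and helper T cells under that filter. With only the 2 types compared, 3 of the genes were called for B cells over helper T cells and 466 probes for cytotoxic over helper T cells. The main fit called 1839 and 193 probes in these 2 contrasts. Without the replicate block, or with a random one, 1 gene was called for B cells over cytotoxic T cells. Without the block 1159 probes were called for B cells over helper T cells, 1107 for B cells over cytotoxic T cells and 125 for cytotoxic over helper T cells. In the joint fit 22, 1 and 9 probes had a called slope in B cells, cytotoxic T cells and monocytes. By the exact permutation 1 gene (BAG3) had an unadjusted p under 0.05 in cytotoxic T cells.

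With 1 animal left out at a time, 1 to 2 genes were called for B cells over helper T cells, 1 to 2 for B cells over cytotoxic T cells and 1 to 3 in the test over animals. In the main fit 1839, 1819 and 2443 of 7303 probes were called in these 3 comparisons. Between cytotoxic and helper T cells as few as 72 probes were called, without the rank 1 animal. FOSB in cytotoxic over helper T cells ran from -0.12 to 0.44. The slopes of FOSB ran from -0.063 to 0.35 in monocytes, -0.73 to 0.090 in B cells, -1.38 to 0.086 in cytotoxic T cells and -0.30 to 0.22 in helper T cells. Those of EGR1 ran from -0.14 to 0.13 in B cells and -0.18 to 0.00028 in cytotoxic T cells. That of PPP1R15A in monocytes ran from -0.078 to 0.53, and those of BAG3 from -0.16 to 0.042 in monocytes and -0.041 to 0.020 in helper T cells.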
